A study of Danio rerio with 6 samples.

Results

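The embryonic globin genes of zebrafish encode the alpha-like (hbae) and beta-like (hbbe) chains of hemoglobin in the red blood cells of embryos and larvae. All gene rows whose symbol starts with hbbe or hbae were taken, which gave 10 rows of the 39214 genes in the deposited table, 5 for alpha chains and 5 for beta chains. RNA-seq was carried out on AB wild-type larvae at 5 dpf, with 3 libraries from larvae exposed to 4 mg/L Lurasidone, an antipsychotic drug, and 3 libraries from control larvae. The sample labels place the start of exposure at 3 hpf, whereas the methods place it at 5 hpf and give the controls DMSO as solvent. The number of larvae behind a library was not given in the sources used here, so p-values measure the spread between these libraries. The labels name larvae as the source of the RNA, while the methods describe entire larvae as well as brain tissue. Labels and methods name the drug Lurasidone, whereas supplementary read-quality panels of the treated libraries carry the name of another antipsychotic, perospirone, a difference that the sources used here do not explain.

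Hemoglobin carries oxygen as a tetramer of alpha and beta chains, each holding a heme group. In zebrafish, alpha and beta globin genes lie side by side, mostly in opposite orientation, in a major locus on chromosome 3 and a minor locus on chromosome 12. Adult globin genes (hbaa, hbba) occupy the neighbouring part of the major locus, and larvae use the embryonic genes before the adult ones take over. Coordinates are those of the deposited table, whose build is GRCz11 per the submitters' processing notes.

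Values were in FPKM, fragments scaled by gene length and by library size, so that levels can be compared between genes. The libraries held 11749887 to 12553624 fragments on genes in the Lurasidone group and 12210400 to 15107664 in the control group. Markers of muscle, liver, pancreas, skin, lens and brain were present in all 6 libraries, and their summed level was 2282 to 2848 FPKM in Lurasidone larvae and 1418 to 2229 FPKM in control larvae. Of these 8 markers, the fast muscle myosin gene myhz2 was the 1 that limma called (4 by limma voom), at 552, 639 and 605 FPKM in Lurasidone larvae and 118, 151 and 141 FPKM in control larvae. These calls were all higher, where limma called 5.79% of all tested genes higher and limma voom 7.39%. Log2 fold changes were above 0 for 6 markers and below 0 for 2, the brain markers gfap and elavl3. These were −0.48 for gfap, without overlap of the groups, and −0.34 for elavl3, with overlap (adjusted p = 0.131 and 0.451 by limma). The mitochondrial genes took 4.10 to 4.26% of the fragments in Lurasidone libraries and 1.41 to 3.96% in control libraries, with control replicate 2 the lowest. The part of tissue makeup and of the mitochondrial share in the globin results was not tested.

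Transcripts of the embryonic globins were scarcer after Lurasidone exposure, and the 5 genes that fell all lie on chromosome 3, which holds 7 of the 10. Together the 10 genes took 0.0946, 0.110 and 0.0994% of the fragments in Lurasidone libraries and 0.192, 0.216 and 0.175% in control libraries. In the limma fit over 23409 genes with Benjamini-Hochberg adjustment, 9 of the 10 rows could be tested and 5 fell at an adjusted p of at most 0.05, while 0 rose (0 also at an unadjusted p under 0.05 and by limma voom). Across all tested genes 3.9% were lower and 5.79% higher by this rule. On simulated data the share of false calls of this fit lay above 0.05, so calls close to the threshold are less certain. At an unadjusted p under 0.05, 6 of the 9 were lower, against 14.1% lower and 14.1% higher of all tested genes, and limma voom called 6 of the 9 lower, against 5.49% lower and 7.39% higher of all. With a log2 fold change beyond 1 in size as an added demand, 4 of the 9 fell and 0 rose, against 1.22% lower and 2.61% higher of all tested genes. The Lurasidone libraries all lay below the control libraries for 6 of the 9, against 16.2% of all tested genes. Without control replicate 1, 2 of the 9 fell by adjusted p and 2 past both thresholds, and without Lurasidone replicate 1 these counts were 5 and 2. Without control replicate 2, which stood apart in its mitochondrial share, they were 4 and 3, and quantile normalization left 1 past both thresholds. The median log2 fold change of the 9 was −0.95, beside −0.02 for all tested genes. In RNA from bulk samples, fewer red blood cells and less globin RNA per cell cannot be told apart.

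**Figure D1:**
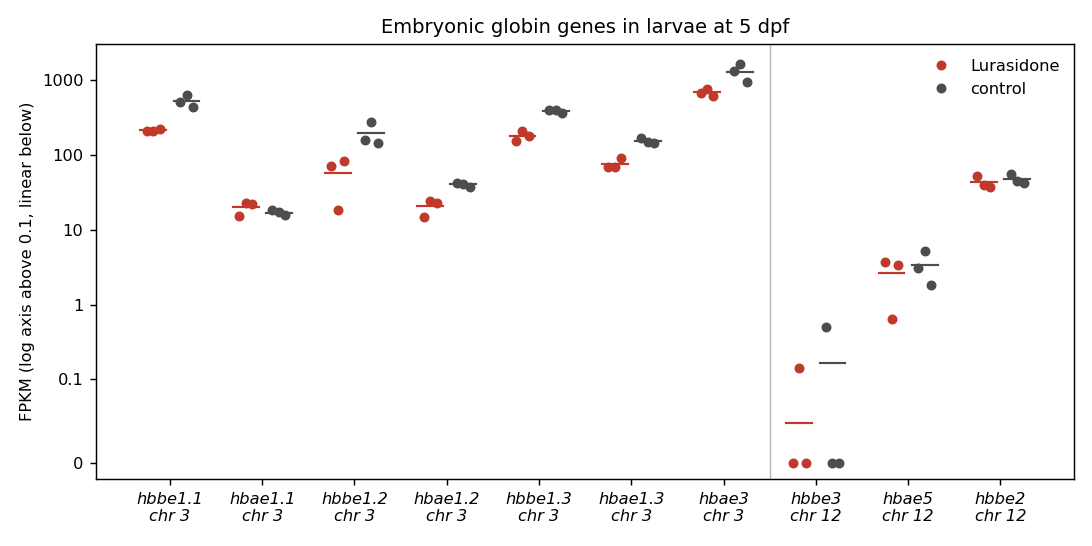
FPKM per library (log axis above 0.1 FPKM, linear below) of the embryonic globin rows, with Lurasidone libraries left of control libraries and a bar at each group mean. The dots of the groups are apart for hbbe1.1, hbbe1.2, hbbe1.3, hbae1.2, hbae1.3 and hbae3, and they overlap for hbae1.1, hbae5, hbbe2 and hbbe3.

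The beta chain gene hbbe1.1 (ENSDARG00000113599, chromosome 3, 55114097 to 55114874, plus strand) had 206, 208 and 223 FPKM in Lurasidone larvae and 504, 622 and 436 FPKM in control larvae. The 3 Lurasidone libraries lay close together and far below the lowest control library. Its mean was 213 ± 9.34 FPKM in Lurasidone larvae and 520 ± 94.3 FPKM in control larvae (SD, n = 3 each), a ratio of 0.409. The log2 fold change was −1.27 (SE 0.19, 95% interval −1.71 to −0.84, adjusted p = 0.00568 by limma), and the adjusted p stayed below 0.05 under every alternative run. Under quantile normalization the log2 fold change of −0.998 fell just short of the fold threshold.

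The gene hbbe1.3 (ENSDARG00000087390, chromosome 3, 55131289 to 55132052, plus strand), another beta chain gene of the locus, had 154, 208 and 178 FPKM in Lurasidone larvae and 395, 393 and 357 FPKM in control larvae. Again no Lurasidone library reached a control library. The decrease was 1.09 on the log2 scale, as a log2 fold change of −1.09 (SE 0.18, 95% interval −1.50 to −0.68, adjusted p = 0.00855 by limma).

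The row of hbbe1.2 (ENSDARG00000115405, chromosome 3, 55122662 to 55123439, plus strand), also a beta chain gene, had 70.6, 18.2 and 83.1 FPKM in Lurasidone larvae and 159, 276 and 142 FPKM in control larvae. Lurasidone replicate 2 was far below the other libraries of its group and control replicate 2 far above those of its own, while the groups did not overlap. The log2 fold change of −1.93 (SE 0.50, 95% interval −3.04 to −0.81) was the lowest of the 9 and also had the widest interval, at a limma adjusted p of 0.0405. The call was lost without Lurasidone replicate 2 (log2 fold change −1.25, adjusted p = 0.0545 by limma), without control replicate 1 (−2.03, 0.101) and without control replicate 2 (−1.63, 0.110), and likewise without the filter on low values (−1.93, 0.110), over a range of 0.00725 to 0.110 in all alternatives. The genes hbbe1.1 and hbbe1.2 share a length of 684 bases, and fragments could have been split between near-identical copies in the authors' counting. Added together, an alternative chosen after seeing the data, they had 277, 227 and 306 FPKM in Lurasidone larvae and 663, 898 and 577 FPKM in control larvae, with a log2 fold change of −1.38 (SE 0.23, adjusted p = 0.00764 by limma).

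Among the alpha chain genes, hbae1.3 (ENSDARG00000089124, chromosome 3, 55138413 to 55139127, minus strand) had 69.0, 68.9 and 89.4 FPKM in Lurasidone larvae and 169, 148 and 144 FPKM in control larvae. The groups were well apart, and the log2 fold change was −1.02 (SE 0.17, 95% interval −1.41 to −0.63, adjusted p = 0.00889 by limma). The row listed under the same symbol in the deposited table (ENSDARG00000088330, chromosome 3, 55127549 to 55128258, minus strand), which a separate symbol table calls hbae1.2, is also an alpha chain gene. It had 14.9, 24.1 and 22.6 FPKM in Lurasidone larvae and 41.7, 41.0 and 37.4 FPKM in control larvae. Here too every Lurasidone library was below every control library, with a log2 fold change of −0.95 (SE 0.19, 95% interval −1.39 to −0.52, adjusted p = 0.0171 by limma), which misses the fold threshold. Without control replicate 1 the limma adjusted p was 0.0506 for hbae1.3 (range over its alternatives 0.00197 to 0.0506) and 0.0759 for hbae1.2 (range 0.00933 to 0.0759). Added together after seeing the data, both rows had 83.9, 93.1 and 112 FPKM in Lurasidone larvae and 211, 189 and 182 FPKM in control larvae, a log2 fold change of −1.01 (SE 0.17, adjusted p = 0.00933 by limma).

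The alpha chain gene hbae3 (ENSDARG00000079305, chromosome 3, 55146418 to 55147788, minus strand) had the highest level of all 10 in each of the 6 libraries. Its values were 659, 759 and 609 FPKM in Lurasidone larvae and 1315, 1599 and 941 FPKM in control larvae. The groups did not overlap, and the control libraries were spread widely. The mean was 676 ± 76.4 FPKM in Lurasidone larvae and 1285 ± 330 FPKM in control larvae (SD, n = 3 each). With a log2 fold change of −0.90 (SE 0.25, 95% interval −1.46 to −0.34) and a limma adjusted p of 0.0517, hbae3 did not pass the test. It passed under 6 alternatives, among them the fit without control replicate 3 (−1.11, adjusted p = 0.0115 by limma) and limma voom on fragments (−0.90, 0.0113), over a range of 0.0113 to 0.170.

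The remaining alpha chain gene of the locus, hbae1.1 (ENSDARG00000089475, chromosome 3, 55120330 to 55121125, minus strand), lies between hbbe1.1 and hbbe1.2. It had 15.0, 22.4 and 21.8 FPKM in Lurasidone larvae and 18.2, 17.1 and 15.4 FPKM in control larvae. The groups overlapped, with 2 Lurasidone libraries above all controls and 1 below them. The log2 fold change was 0.19 (SE 0.18, 95% interval −0.22 to 0.61, adjusted p = 0.520 by limma), the 1 value above 0 among the 9 tested. The sum of hbae1.2 and hbae1.3 left hbae1.1 out. Whether fragments were split between hbae1.1 and those rows in the authors' counting was not tested.

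The chromosome 12 genes did not pass the test, and whether their change differed from that of the chromosome 3 genes was not tested. The beta chain gene hbbe2 (ENSDARG00000045143, 20349865 to 20350629, minus strand) had 51.5, 39.8 and 37.5 FPKM in Lurasidone larvae and 55.1, 43.9 and 42.4 FPKM in control larvae. Replicate 1 was the highest of its group in both groups, and the groups overlapped. Its log2 fold change was −0.13 (SE 0.18, 95% interval −0.54 to 0.27, adjusted p = 0.661 by limma), so that a fall to the size seen for hbbe1.1 lies outside the interval. A further beta globin model without a symbol, on an alternate contig of chromosome 12, had 64.1, 78.4 and 78.2 FPKM in Lurasidone larvae and 74.5, 84.4 and 48.5 FPKM in control larvae. Added together after seeing the data, hbbe2 and this model gave a log2 fold change of 0.02 (SE 0.18, 95% interval −0.39 to 0.43, adjusted p = 0.954 by limma).

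The alpha chain gene hbae5 (ENSDARG00000045142, chromosome 12, 20342451 to 20353541, plus strand) had 3.74, 0.650 and 3.41 FPKM in Lurasidone larvae and 3.09, 5.20 and 1.80 FPKM in control larvae. Lurasidone replicate 2 was the lowest and rested on 11 fragments, and the groups overlapped. The log2 fold change was −0.35 (SE 0.41, adjusted p = 0.614 by limma), and it became 0.14 without Lurasidone replicate 2. Its gene model spans hbbe2 on the opposite strand, and whether counting used strand was not given in the sources used here. The beta chain gene hbbe3 (ENSDARG00000038147, chromosome 12, 20339413 to 20340543, minus strand) was counted with 0, 1 and 0 fragments in Lurasidone libraries and 4, 0 and 0 fragments in control libraries. At a limit of 3 fragments per library, no difference was detectable for hbbe3, and it was not tested.

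**Figure D2:**
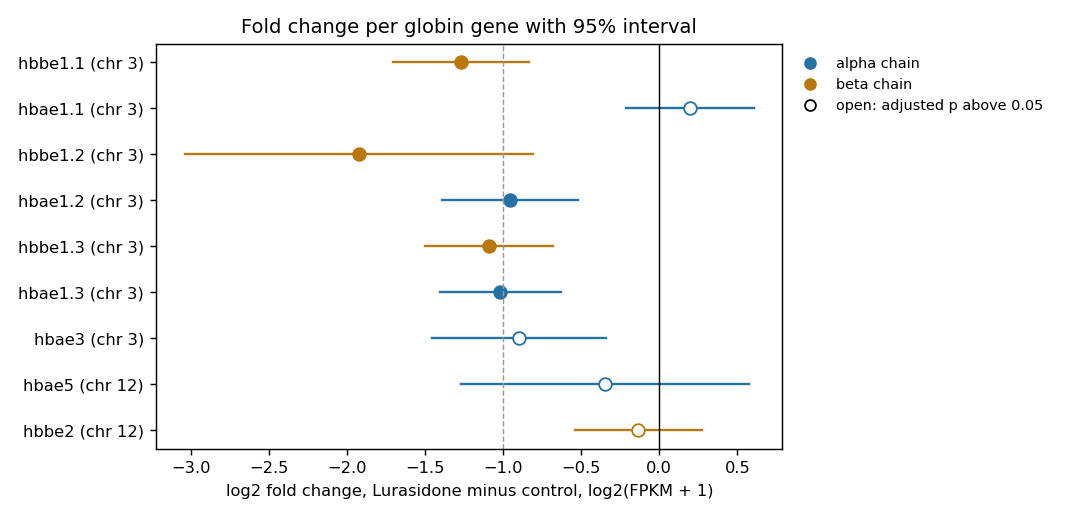
Log2 fold change of Lurasidone over control for the 9 tested embryonic globin rows, on the log2(FPKM + 1) scale, with 95% intervals from limma, alpha chains in blue, beta chains in ochre, open dots at an adjusted p above 0.05 and a dashed line at −1. The intervals of hbae1.1, hbae5 and hbbe2 include 0, and those of the other 6 lie below 0.

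By mean FPKM, the control larvae held the genes in the order hbae3, hbbe1.1, hbbe1.3, hbbe1.2, hbae1.3, hbbe2, hbae1.2, hbae1.1, hbae5 and hbbe3. The neighbours hbbe1.2 and hbae1.3 overlapped in this group. In Lurasidone larvae, the ranges of hbbe1.1 and hbbe1.3 overlapped, as did those of hbae1.3 and hbbe1.2, of hbbe1.2 and hbbe2, and of hbae1.2 and hbae1.1. The means of hbae1.2 and hbae1.1 were 20.6 and 19.7 FPKM in Lurasidone larvae, against 40.0 and 16.9 FPKM in control larvae.

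The levels were also added up per chain. The alpha chain genes added up to 762, 875 and 746 FPKM in Lurasidone larvae and 1547, 1810 and 1140 FPKM in control larvae, a mean 47.0% lower. The beta chain genes added up to 482, 475 and 522 FPKM in Lurasidone larvae and 1114, 1335 and 977 FPKM in control larvae, a mean 56.8% lower. Both sums were lower in every Lurasidone library than in any control library. The ratio of alpha to beta transcripts was 1.58, 1.84 and 1.43 in Lurasidone larvae and 1.39, 1.36 and 1.17 in control larvae. For these 10 genes the ratio was higher in every Lurasidone library than in any control library, with Lurasidone replicate 3 and control replicate 1 close together. With zgc_163057 and the unnamed globin models of the chromosome 12 alternate contig added to their chains, an alternative chosen after seeing the data, the ratio was 1.40, 1.59 and 1.25 in Lurasidone larvae and 1.31, 1.28 and 1.11 in control larvae. The groups then overlapped, and the log2 difference was 0.20 in place of 0.31. As a score over the genes, the sums and their ratio received no test.

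**Figure D3:**
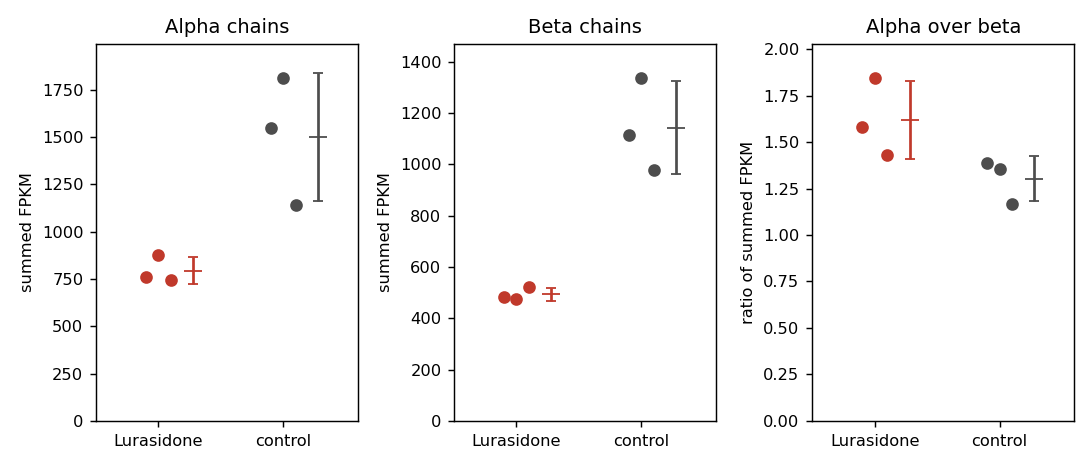
Summed FPKM of the alpha chain genes, summed FPKM of the beta chain genes and the ratio of both sums, per library, with Lurasidone libraries left of control libraries and the group mean ± SD beside the dots (n = 3). Both sums are lower in the Lurasidone libraries, by 47.0% and 56.8% of the control mean, and the ratio of 1.43 to 1.84 lies above the control range of 1.17 to 1.39 for these 10 genes, a separation that is lost once the unnamed globin genes are added.

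Within the alpha sum, hbae3 held 81.6 to 86.7% in Lurasidone larvae and 82.5 to 88.3% in control larvae. The share of hbae1.1 was 1.97 to 2.93% in Lurasidone larvae and 0.945 to 1.36% in control larvae. Within the beta sum, hbbe1.1 held 42.8 to 43.9% in Lurasidone larvae and 44.6 to 46.6% in control larvae. The share of hbbe2 was 7.19 to 10.7% in Lurasidone larvae and 3.29 to 4.94% in control larvae. Thus the shares of hbae1.1 and hbbe2, whose own levels overlapped between the groups, were higher in every Lurasidone library than in any control library. As both chain sums were lower in the Lurasidone libraries, these higher shares follow from the sums and are no separate result.

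Alpha and beta genes of the same locus were compared within each library as 4 pairs. Those on chromosome 3 were matched by the number in the symbol and not by distance. By position, hbae1.1 lies nearer to hbbe1.2 than to hbbe1.1. The FPKM ratio of hbae1.1 to hbbe1.1 was 0.0728, 0.107 and 0.0977 in Lurasidone larvae and 0.0361, 0.0275 and 0.0355 in control larvae. The groups did not overlap, and the log2 ratio differed by 1.48, with a two-sided exact permutation p of 0.1 (0.4 after adjustment over the 4 pairs). That p is the smallest 3 against 3 libraries can give, so that no pair could pass. For hbae1.3 over hbbe1.3 the ratio was 0.449, 0.331 and 0.503 in Lurasidone larvae and 0.428, 0.376 and 0.404 in control larvae, with overlap and an exact permutation p of 0.8. The other two pairs, hbae1.2 over hbbe1.2 and hbae5 over hbbe2, also overlapped (exact permutation p = 0.4 and p = 0.7).

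Adult globins were close to the limit of detection. The 5 adult rows (hbaa1, hbaa2, hbba2 and the rows named hbba1) held 5 fragments over the 6 libraries, with 3 rows at 0 throughout and at most 3 fragments of a row in a library. The gene zgc_163057, named hbae4 in the symbol table, is an alpha globin gene of the chromosome 12 locus outside the rule, with 1.77, 2.26 and 2.68 FPKM in Lurasidone larvae and 2.91, 1.46 and 0.815 FPKM in control larvae. Of the other globin genes, 4 were tested, with 0 called lower by limma (1 at an unadjusted p under 0.05 and 1 by voom) and 1 called higher, and their median log2 fold change was 0.29. By limma, 3.9% of all tested genes were lower and 5.79% higher. Lower shares of all were 14.1% at an unadjusted p under 0.05 and 5.49% by voom. The gene that rose, ngb (neuroglobin), averaged 3.18 ± 0.504 FPKM in Lurasidone larvae and 1.33 ± 0.473 FPKM in control larvae (SD, n = 3 each, log2 fold change 0.86, SE 0.20, adjusted p = 0.0281 by limma). Myoglobin (mb), the oxygen-binding protein of muscle, had 26.3, 10.9 and 27.8 FPKM in Lurasidone larvae and 49.6, 53.9 and 35.6 FPKM in control larvae. The groups did not overlap for mb, and its limma adjusted p was 0.0526 (log2 fold change −1.15, SE 0.32), while limma voom called it lower.

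Genes of heme synthesis, of erythroid transcription factors and of the red cell membrane were described as 3 lists. The genes were not checked for expression outside red cells, so the lists need not stand for red cells alone. The rows of alas2, gata1a and gata1b were too low to be tested. Of the 43 tested rows of the 3 lists, limma called 0 lower and 2 higher, with a median log2 fold change of 0.11. The limma calls compare with 3.9% lower and 5.79% higher among all tested genes. At an unadjusted p under 0.05, 3 were lower and 7 higher, where all tested genes had 14.1% in each direction, and voom called 0 lower and 4 higher, where all tested genes had 5.49% lower and 7.39% higher. The erythroid transcription factors (14 tested) had 0 limma calls, 0 voom calls, 1 gene higher at an unadjusted p under 0.05 and a median of 0.04. Whether a factor raises or lowers its target genes was not considered. The membrane and red cell list (15 tested) had 12 values above 0 and 3 below, with a median of 0.21 and a summed level of 416 to 452 FPKM in Lurasidone larvae and 347 to 406 FPKM in control larvae.

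Among red cell genes, sptb, which encodes the beta spectrin of the membrane skeleton, had 7.57, 8.85 and 9.55 FPKM in Lurasidone larvae and 3.65, 5.24 and 5.32 FPKM in control larvae. All Lurasidone libraries were above the controls, with a log2 fold change of 0.76 (SE 0.18, adjusted p = 0.0311 by limma). The red cell carbonic anhydrase gene cahz had 57.7, 65.4 and 70.7 FPKM in Lurasidone larvae and 42.5, 38.6 and 47.6 FPKM in control larvae, without overlap (log2 fold change 0.58, SE 0.16, adjusted p = 0.0509 by limma). The ammonium transporter gene rhag had 97.6, 121 and 107 FPKM in Lurasidone larvae and 80.1, 79.3 and 83.1 FPKM in control larvae (log2 fold change 0.41, SE 0.16, adjusted p = 0.123 by limma). The anion exchanger gene slc4a1a (band 3) had 64.6, 57.6 and 84.6 FPKM in Lurasidone larvae and 58.4, 60.8 and 48.4 FPKM in control larvae, with overlap (log2 fold change 0.29, adjusted p = 0.346 by limma). Of the 3 values of the list below 0, beside 12 above, the lowest was that of aqp1a.1. It had 83.4, 80.2 and 69.1 FPKM in Lurasidone larvae and 134, 147 and 76.6 FPKM in control larvae. These groups overlapped (log2 fold change −0.56, adjusted p = 0.165 by limma). The other values below 0 belonged to add2 (−0.15) and the ank1a row ENSDARG00000059093 (−0.26). Of the transcription factor gene gata1a, 3 to 15 fragments were counted per library, too few to be tested.

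The embryonic globin sum was also divided by these markers in the same library. Divided by the summed red cell list it was 2.99, 2.99 and 2.83 in Lurasidone larvae and 6.56, 7.76 and 6.10 in control larvae. Divided by slc4a1a alone it was 19.2, 23.5 and 15.0 in Lurasidone larvae and 45.6, 51.7 and 43.7 in control larvae. The groups were apart for both ratios, which describe the libraries and received no test. The globin sum was lower and the list sum higher in every Lurasidone library than in any control library. The ratio to the list therefore follows from the sums and is no separate result. The level of slc4a1a overlapped between the groups, so the ratio to it largely repeats the lower globin sum. Genes of the summed list were not checked for expression outside red cells, so the sum need not stand for red cells alone. Among them, tmod4 had 68.4, 82.0 and 67.9 FPKM in Lurasidone larvae and 53.9, 39.9 and 49.5 FPKM in control larvae. Its log2 fold change was 0.60 (adjusted p = 0.0565 by limma). The lowest Lurasidone sum of the list (416 FPKM) lay close to the highest control sum (406 FPKM). With tmod4 left out of the list, the sums of the groups would overlap.

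**Figure D4:**
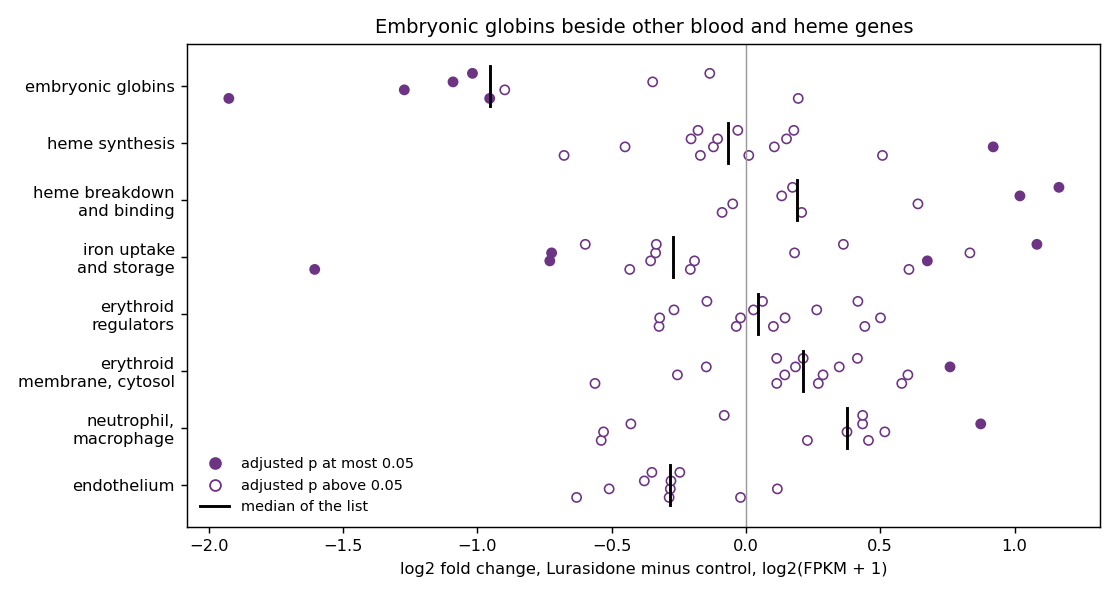
Log2 fold change of Lurasidone over control for each tested gene, one row per gene list, with filled dots at a limma adjusted p of at most 0.05 and a line at the median of the list. The embryonic globins have a median of −0.95, whereas the medians of the heme synthesis, erythroid transcription factor and red cell lists are −0.07, 0.04 and 0.21. Genes of the latter lists were not checked for expression outside red cells.

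In heme synthesis (14 tested), hmbsb, which encodes hydroxymethylbilane synthase, rose, with 9.40, 12.2 and 13.9 FPKM in Lurasidone larvae and 4.42, 5.47 and 7.61 FPKM in control larvae (log2 fold change 0.92, SE 0.21, adjusted p = 0.0282 by limma). The related gene hmbsa overlapped between the groups and was not called (log2 fold change −0.11, adjusted p = 0.715 by limma). Of the list, 8 values lay below 0 and 6 above. The general first-step enzyme gene alas1 had 173, 109 and 145 FPKM in Lurasidone larvae and 232, 337 and 144 FPKM in control larvae, with overlap (log2 fold change −0.68, adjusted p = 0.177 by limma). The row of alas2, the erythroid form of that enzyme, was listed at 0 to 0.0931 FPKM. An alternate-contig model annotated as similar to alas2 had 9.71, 7.71 and 3.70 FPKM in Lurasidone larvae and 6.52, 5.51 and 2.08 FPKM in control larvae, and it was looked at after the values of alas2 were seen.

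In heme breakdown and scavenging (8 tested), limma called 0 lower (0 also at an unadjusted p under 0.05 and by voom) and 2 higher. Of all tested genes, limma called 3.9% lower and 5.79% higher. The lower share was 14.1% at an unadjusted p under 0.05 and 5.49% by voom. The heme oxygenase gene hmox1a, whose enzyme opens the heme ring, had 6.98, 8.42 and 5.82 FPKM in Lurasidone larvae and 2.92, 2.21 and 2.62 FPKM in control larvae (log2 fold change 1.17, SE 0.18, adjusted p = 0.00582 by limma). The hemopexin gene hpxb, for a plasma protein that binds free heme, had 10.1, 13.9 and 11.1 FPKM in Lurasidone larvae and 5.02, 4.94 and 5.67 FPKM in control larvae (log2 fold change 1.02, SE 0.17, adjusted p = 0.00757 by limma). For both genes the lowest Lurasidone library stood above the highest control library. The other tested rows of the list were not called by limma and overlapped between the groups. Among them were hpxa (log2 fold change 0.17, adjusted p = 0.704 by limma) and hp (0.13, 0.752).

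In iron uptake and storage (16 tested), limma called 3 lower and 2 higher, with a median log2 fold change of −0.27. At an unadjusted p under 0.05, 5 were lower and 4 higher, and voom called 1 lower and 3 higher, so that the balance of calls depended on the tool. Shares of all tested genes were 3.9% lower and 5.79% higher by limma, and 5.49% lower and 7.39% higher by voom. They were 14.1% in each direction at an unadjusted p under 0.05. The transferrin receptor gene tfr1a, which takes up iron in erythroid cells, averaged 19.5 ± 2.26 FPKM in Lurasidone larvae and 8.72 ± 1.33 FPKM in control larvae (SD, n = 3 each, log2 fold change 1.08, SE 0.17, adjusted p = 0.00590 by limma). The gene tfr2, for a related receptor, also rose (log2 fold change 0.68, adjusted p = 0.0455 by limma). The 3 genes that limma called lower are ferritin-like genes of iron storage. Of these, fthl27 (ENSDARG00000031776) had 43.6, 50.7 and 45.8 FPKM in Lurasidone larvae and 82.0, 88.2 and 64.6 FPKM in control larvae (log2 fold change −0.72, SE 0.17, adjusted p = 0.0304 by limma). The others, fthl30 and a row named fthl31 (ENSDARG00000113150, 0 to 16 fragments), had at most 3.73 FPKM in any library. Further ferritin rows were not called and went both ways. The most abundant, fth1a, had 769 to 886 FPKM in Lurasidone larvae and 643 to 825 FPKM in control larvae (log2 fold change 0.18, adjusted p = 0.597 by limma). Also above 0 was fthl28 (0.61). Below 0 were fth1b (−0.19), fthl29 (−0.36) and the second rows of fthl27 (−0.60) and fthl31 (−0.43).

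Other blood cells were described in the same way. Of the neutrophil and macrophage genes (11 tested), limma called 0 lower (2 at an unadjusted p under 0.05, 0 by voom) and 1 higher (6 at an unadjusted p under 0.05, 2 by voom), with a median log2 fold change of 0.38. The gene called higher was the gelatinase gene mmp9 (log2 fold change 0.87, SE 0.21, adjusted p = 0.0342 by limma), and the summed level of the list was 61.7 to 85.0 FPKM in Lurasidone larvae and 61.7 to 86.7 FPKM in control larvae. Markers fixed for these cells went both ways. Without overlap, mpx (log2 fold change −0.54, adjusted p = 0.128 by limma) and mfap4 (−0.43, 0.142, on 8 to 22 fragments) were lower. The marker csf1ra was higher without overlap (0.38, 0.163), mpeg1.1 overlapped (0.23) and lyz was not tested. The thrombocyte, lymphocyte, erythropoietin and endothelium lists (3, 3, 6 and 10 tested) had 0 limma calls in either direction. At an unadjusted p under 0.05, 2 endothelium genes were lower and 0 genes of the other 3 lists changed, and voom called 1 endothelium gene lower and 0 in the others. Their median log2 fold changes were −0.19, 0.21, −0.04 and −0.28. For comparison, limma called 3.9% of all tested genes lower and 5.79% higher, and voom 5.49% lower and 7.39% higher. At an unadjusted p under 0.05 the share of all tested genes was 14.1% in each direction.

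The globin genes were compared in pattern over the 6 libraries. Pearson's r of a gene with the mean of the other tested globins was 0.965 for hbbe1.1, 0.937 for hbae1.3 and between 0.808 and 0.870 for hbae3, hbbe1.3, hbbe1.2 and hbae1.2. It was 0.460 for hbae5, 0.322 for hbbe2 and −0.44 for hbae1.1. Outside the globins, the protein-coding genes with the most similar pattern among 5233 candidates were ldhd (r = 0.998), fbp2 (0.995), lims1 (0.993), dhx9 (0.992) and gnat2 (0.992). These correlations are descriptions over 6 libraries that share the group difference and the library depth. The fructose bisphosphatase gene fbp2 had 37.3, 30.6 and 43.4 FPKM in Lurasidone larvae and 83.6, 106 and 60.2 FPKM in control larvae. Lurasidone replicate 2 was its lowest library and control replicate 2 its highest, as for hbbe1.2. The same held for ldhd, lims1, dhx9 and gnat2. The globin mean was not scaled per gene, so hbbe1.2, with its widely spread libraries, weighed more in it than genes of smaller spread.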

How the data were processed

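RNA-seq of AB wild-type zebrafish larvae at 5 dpf was taken as deposited, with 3 libraries per group assigned by the treatment label. The authors deposited FPKM values with gene lengths and positions, computed on GRCz11 per the labels. The aligner, the counting tool and the annotation version are not given in the sources used here. FPKM times length was a whole number of fragments (within 0.05) in 100% of values after scaling. A library had 11749887 to 15107664 fragments on genes, 84.5 to 104% of the total in the FPKM denominator, so FPKM and shares of fragments scale the libraries differently. Limits cover counting error only.

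Genes reaching 0.5 FPKM in 3 or more libraries were kept, which left 23409. Their log2(FPKM + 1) values entered limma 3.58.1 (eBayes with trend, R 4.3.3), with group as the only term and Benjamini-Hochberg adjustment over all. For low genes, the pseudocount of 1 makes fold changes smaller than they are. Calls needed an adjusted p of at most 0.05 and, where stated, a log2 fold change that reached 1 in size. The ratios of 4 gene pairs were compared by two-sided exact permutation tests (SciPy 1.17.1), and figures used matplotlib 3.10.9. Alternatives tried were a fit without variance trend, median-ratio or quantile scaling, 0.1 as the pseudocount, leaving out the filter or raising it to 5 FPKM, testing protein-coding genes alone, the replicate block, limma voom on fragments, no fold threshold, other sums of the chains, and leaving out each library. Summed copies, chains with unnamed genes and chains of chromosome 3 only were chosen after seeing the data. Ratios of the globin sum to red cell markers were not among the planned results.

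The globin rows, the gene lists and the tests were chosen with earlier results of these data known. Named by rule were all globin rows, called genes of the globin, heme synthesis, transcription factor and red cell lists, up to 3 other genes per list by adjusted p, and the 5 protein-coding genes of at least 10 FPKM whose pattern was most similar. Markers named for cell types or tissues, tfr2, fthl30, the further ferritin rows and the alternate-contig models fall outside that rule, and all of these but the markers were chosen after their values were seen. Symbols came from the deposited table, and all 10 rows were found in a separate symbol table, 5 of them under another symbol. The scripts were tested on simulated data, where the share of false calls of the limma fit lay above the nominal threshold of 0.05. The table held 0 columns of unknown samples.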

Additional observations from a re-analysis of the deposited data

How the results depend on the processing

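Single globin genes had 137 values under the alternatives, judged by sign and adjusted p and not by the fold threshold. Of these, 122 kept their direction and their side of the adjusted p threshold, and 6 newly passed it (all hbae3). Another 7 no longer passed it (5 for hbbe1.2, 1 each for hbae1.2 and hbae1.3), and 2 changed sign. These were hbae5 without Lurasidone replicate 2 (log2 fold change 0.14, with a range of −0.63 to 0.14 when each library was left out) and hbbe2 with copies summed (0.0217). For hbbe1.2 without any filter the limma adjusted p was 0.110. The number of genes past both thresholds was 4, and it was 1 under quantile normalization, where hbae3 had a log2 fold change of −0.68 and an adjusted p of 0.0177. It ranged from 2 (without Lurasidone replicate 1 or control replicate 1) to 6 (without control replicate 3) when libraries were left out, and from 2 to 6 by adjusted p alone, where control replicate 1 gave the lowest count. The cause was not tested.

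The log2 difference of the alpha sum was −0.89 and that of the beta sum −1.20. With the mean of log2(FPKM + 1) over the genes of a chain they were −0.61 and −0.91, since low genes then weigh as much as high ones. Leaving out libraries gave −1.08 to −0.74 for alpha, −1.31 to −1.08 for beta and 0.21 to 0.39 for alpha over beta (0.31 with all libraries). Alpha over beta was 0.20 with the unnamed globin genes added, where the groups overlapped, and 0.38 with the chromosome 3 genes only. The median of all tested genes moved by less than 0.1 under each scaling.

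With the replicate block, 3 genes passed both thresholds and 4 the adjusted p, and hbbe1.2 lost its call (log2 fold change −1.93, adjusted p = 0.0882). Deviations of libraries with the same number correlated at 0.118, −0.10 and 0.01 over 23409 genes, so the numbers do not pair the libraries, and not every library correlated best with its own number. A planned negative binomial fit on the fragments was not run, and limma voom was the fit on fragments. Depth limits hbbe3 (0 to 4 fragments), the adult globins and hbae5 (11 to 77 fragments).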
